A study of Mus musculus with 9 samples.

Results

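Spiral ligament fibrocytes are the connective tissue cells of the lateral wall of the cochlea, and 10 genes known from these cells were followed here by symbol: Otos, Otor, Coch, Ucma, Slc4a11, Car3, Apod, Pou3f4, Tbx18 and Dkk2. They are 10 of the 25579 gene symbols in the second deposited table, which holds them all, and 4 of them (Otor, Coch, Slc4a11 and Apod) are among the 1410 symbols of the first. RNA came from the membranous labyrinth of the mouse cochlea at postnatal day 28, with 3 libraries in each of 3 groups. The treated group was hMPZL2Q74X/Q74X mice, homozygous for a humanized MPZL2 gene with a nonsense change, given AAV-ie-ABE8eWQ-SpRY:sgRNA3 at the round window of the cochlea on postnatal day 2. The homozygous group was hMPZL2Q74X/Q74X mice for which the labels give no treatment, and the wild-type group (WT) was labelled Mpzl2 WT. The vector carries an adenine base editor and its guide RNA, and since the labels name no mice given an empty or non-editing vector, injection, vector and editing cannot be told apart. Strain, sex and any pooling of animals were not stated in the sources used here.

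Fibrocytes of the spiral ligament lie between the stria vascularis and the bone of the otic capsule. They pass potassium ions back towards the stria through transporters and gap junctions, and they secrete much of the matrix of the lateral wall. They derive from the mesenchyme around the otocyst, whose transcription factors include Pou3f4 and Tbx18. Human COCH, POU3F4 and SLC4A11 variants are known from inherited hearing loss.

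Values are TPM (transcript abundance corrected for transcript length and scaled to a fixed library total), which can be compared between genes within a table. The homozygous libraries have other values in the second table than in the first. In the second table they were 1.33 to 1.41 times as high for the 4 shared fibrocyte genes, against a median of 1.16 to 1.17 over all shared genes. Treated libraries were therefore compared only with homozygous libraries in the second table, and homozygous with WT libraries only in the first. Treated libraries 1 and 2 were close to copies of each other: the spread of their log2 ratio at 1 to 5 TPM, taken from the interquartile range, was 0.0728, against 0.864 to 1.09 for pairs of homozygous libraries and 1.83 for either of them with treated library 3. They were averaged and counted as 1 sample, which leaves 2 treated samples. These 2 libraries also stood apart in forebrain neuron genes, whose summed level over 10 genes was 1459, 1437 and 196 TPM in treated libraries 1, 2 and 3, against 177 to 215 TPM in the homozygous libraries. Camk2a, a kinase of forebrain neurons, was at 745 and 722 TPM in treated libraries 1 and 2 and at 8.13 TPM in library 3, against 0.47 to 0.55 TPM in the homozygous libraries. The part of this tissue in the levels of the fibrocyte genes was not tested, and values with treated library 3 alone are given beside the results. The share of TPM from mitochondrial genes was 2.17%, 2.22% and 6.16% in treated libraries 1, 2 and 3, against 10.7% to 13.6% in the homozygous libraries. Mpzl2, the gene the genotype concerns, averaged 17.5 TPM in homozygous and 42.1 TPM in WT libraries of the first table (log2 fold change -1.25 ± 0.24, SE; adjusted p = 0.0139 by limma). In the second its log2 fold change in treated over homozygous libraries was -0.80 ± 0.49 (SE; adjusted p = 0.335 by limma). Whether its row counts the humanized transcript was not stated.

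All 10 fibrocyte genes were well above 1 TPM in every library of the second table, and the lowest value was 20.2 TPM, for Dkk2 in homozygous library 2. Their sum was 10826, 10721 and 16269 TPM in treated libraries 1, 2 and 3, against 21981, 24763 and 18424 TPM in homozygous libraries 1, 2 and 3. Coch and Apod made up 78.6% to 80.3% of that sum in the treated libraries and 71.2% to 75.3% in the homozygous libraries. Apod ranked 4 to 5 among all genes by TPM in the treated libraries and 7 to 11 in the homozygous libraries, and Coch ranked 6 to 10 in treated and 9 to 12 in homozygous libraries. Otos followed at ranks 72 to 79 in the treated libraries, against 20 to 27 in the homozygous libraries.

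Promoter sequences, 250 bases before to 50 bases after the start of the gene, are shown for Otos and Otor, which passed as lower in the comparisons, and for Pou3f4 and Tbx18, the pair with the most alike profiles. They come from RefSeq on GRCm38.p6, which is not the build named for these files, and 8 of the 10 genes had an entry. The sequences run 5′ to 3′ in the direction of the gene, and capitals mark TATAAA and CCAAT on either strand.
Otos, chr1:92648792-92649091, minus strand: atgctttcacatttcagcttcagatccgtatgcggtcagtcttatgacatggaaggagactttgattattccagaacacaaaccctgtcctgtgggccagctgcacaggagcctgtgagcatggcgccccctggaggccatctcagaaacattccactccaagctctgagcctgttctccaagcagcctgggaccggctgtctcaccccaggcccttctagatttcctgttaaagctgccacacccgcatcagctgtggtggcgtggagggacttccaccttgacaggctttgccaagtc
Otor, chr2:143078143-143078442, plus strand: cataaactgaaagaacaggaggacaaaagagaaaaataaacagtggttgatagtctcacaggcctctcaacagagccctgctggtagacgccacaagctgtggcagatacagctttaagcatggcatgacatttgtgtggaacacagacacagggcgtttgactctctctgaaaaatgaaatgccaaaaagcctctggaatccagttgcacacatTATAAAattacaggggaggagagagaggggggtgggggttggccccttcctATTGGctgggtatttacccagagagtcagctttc
Pou3f4, chrX:110814129-110814428, plus strand: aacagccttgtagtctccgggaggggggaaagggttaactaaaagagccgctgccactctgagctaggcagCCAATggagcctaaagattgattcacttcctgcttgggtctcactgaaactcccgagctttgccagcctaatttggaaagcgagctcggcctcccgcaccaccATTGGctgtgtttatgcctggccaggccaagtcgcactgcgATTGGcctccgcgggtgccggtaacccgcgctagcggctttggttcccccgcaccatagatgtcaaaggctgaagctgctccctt
Tbx18, chr9:87731211-87731510, minus strand: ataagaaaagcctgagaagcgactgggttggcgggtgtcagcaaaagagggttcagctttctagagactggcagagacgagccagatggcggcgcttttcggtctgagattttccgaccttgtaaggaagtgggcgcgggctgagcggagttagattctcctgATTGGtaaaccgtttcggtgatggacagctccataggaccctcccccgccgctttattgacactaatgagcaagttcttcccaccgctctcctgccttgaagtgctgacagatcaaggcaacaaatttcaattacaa

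These windows differed in the letters they hold. TATAAA stood at position -35 from the start in Otor and at -32 in Dkk2, and 1.99% of 32851 promoters hold it 40 to 20 bases before the start on the gene's strand. On either strand 3 of the 8 fibrocyte promoters hold it (Otor, Dkk2 and Coch), against 13.6% of all promoters. CCAAT on either strand was found in 5 of the 8 (Otor, Dkk2, Ucma, Pou3f4 and Tbx18), against 37.4% of all promoters, with 3 copies in Pou3f4 and 1 in Tbx18. The octamer ATGCAAAT, which POU proteins bind, and the AGGTGTGA element of T-box proteins were found in 0 of the 8 on either strand, against 1.74% and 1.28% of all promoters. These 4 motifs do not overlap one another in the promoters shown. A match describes the letters and not a bound site, and the Otos window held none of the 4.

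The first comparison, homozygous against WT, asks how the cochlea with the humanized nonsense allele differs from that of mice labelled Mpzl2 WT. Since the labels name no humanized mice without the nonsense change, humanization of the gene and the nonsense change cannot be told apart. Slc4a11 and Apod were higher in the homozygous libraries, Otor was lower, and Coch did not pass the test. Of the 4 genes tested, 2 rose and 1 fell by limma at an adjusted p under 0.05. Of all 1348 tested genes 51.3% passed, 17.9% as higher and 33.5% as lower. The same 3 genes had an unadjusted p under 0.05, as did 75.7% of all tested genes. The groups did not overlap in 2 genes as higher and 1 as lower, against 31.5% and 45.6% of all tested genes, or 77.1% in either direction. With 3 of 4 genes above 0, against 46% of all tested genes, the median log2 fold change was 0.49, against -0.36 over all. The deposited rows are a selected set in which the smallest change of a tested gene was 0.24 on the log2 scale, so these counts are not independent evidence. In bulk tissue, fewer cells of a type and less RNA per cell cannot be told apart. The p-values measure the spread between these samples, and the labels, which call the libraries biological replicates, do not say that each came from an animal of its own.

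Otor encodes otoraplin, a small secreted protein of the MIA family that was found in cochlear fibrocytes. Its level was 233, 276 and 256 TPM in homozygous libraries 1, 2 and 3, against 487, 441 and 476 TPM in WT libraries 1, 2 and 3. The groups did not overlap, and the highest homozygous library was well below the lowest WT library. On the log2 scale the fold change was -0.88 with a standard error of 0.12 (adjusted p = 0.00537 by limma), with means of 255 ± 21.0 TPM in homozygous and 468 ± 23.9 TPM in WT libraries (SD, n = 3 each). The call held in each fit with 1 library left out, with an adjusted p of 0.00277 to 0.0272. Relative to Coch in the same library, the log2 ratio of Otor was -4.58, -4.34 and -4.09 in homozygous libraries 1, 2 and 3, against -3.21, -3.22 and -3.15 in WT libraries 1, 2 and 3. Its relatives Mia2 and Mia were at log2 fold changes of 0.28 and -1.08 without passing (adjusted p = 0.0603 and 0.0749 by limma). Mia2 passed under median-of-ratios scaling (adjusted p = 0.0259), and Mia passed without WT library 1, at -1.75 (adjusted p = 0.0127).

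Coch encodes cochlin, an abundant matrix protein of the spiral ligament. It was at 5579, 5564 and 4339 TPM in homozygous libraries 1, 2 and 3, against 4489, 4106 and 4216 TPM in WT libraries 1, 2 and 3. The groups overlapped, since homozygous library 3 lay among the WT values. Its log2 fold change was 0.26 with a 95% interval of -0.24 to 0.76 (adjusted p = 0.26 by limma).

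Slc4a11 encodes a membrane transporter of fibrocytes and of the corneal endothelium. It was at 316, 816 and 280 TPM in homozygous libraries 1, 2 and 3, against 138, 84.1 and 170 TPM in WT libraries 1, 2 and 3. Every homozygous library was above every WT library, and homozygous library 2 stood far above the other two. Slc4a11 had a log2 fold change of 1.72 ± 0.41 (SE; adjusted p = 0.0241 by limma). Without homozygous library 2 it was 1.24 (adjusted p = 0.0185), and without WT library 1 or 2 the call was lost (adjusted p = 0.0583 and 0.0648). Homozygous library 2 was also the highest in the marginal cell genes of the stria vascularis, the secretory epithelium beside the ligament. It was likewise the highest homozygous library in summed intermediate cell genes of the stria (676 TPM) and summed bone genes (3851 TPM). The marginal cell genes in this table, Lrp2 and Atp13a5, summed to 261 to 590 TPM in the homozygous libraries and 164 to 198 TPM in the WT libraries. Both passed as higher, as did 17.9% of all tested genes. The call of Lrp2 was lost in 4 and that of Atp13a5 in 5 of the 6 fits with 1 library left out. The part of stria and bone in the level of Slc4a11 was not tested. Slc4a10, a bicarbonate transporter of the same gene family, also rose, with a log2 fold change of 1.37 (adjusted p = 0.0154 by limma).

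Apod encodes apolipoprotein D, a lipocalin that carries small lipids and is also made by glia and by fibroblasts of other tissues. It was at 6271, 7329 and 5594 TPM in homozygous libraries 1, 2 and 3, against 3446, 3487 and 4865 TPM in WT libraries 1, 2 and 3. The groups did not overlap, though WT library 3 came near the lowest homozygous library. Apod had a log2 fold change of 0.71 ± 0.25 (SE; adjusted p = 0.0464 by limma). The call was lost in 5 of the 6 fits with 1 library left out (adjusted p = 0.054 to 0.124), and held without homozygous library 3 (adjusted p = 0.0419). Ptgds, another lipocalin, which makes prostaglandin D, rose too, with a log2 fold change of 1.24 (adjusted p = 0.0233 by limma), but this call did not hold in 4 of those 6 fits. Markers of Schwann cells, which also make apolipoprotein D, ran the other way. Of 9 such genes 7 were tested and 6 passed as lower, against 33.5% of all tested genes. The 7 summed to 2746 to 5195 TPM in the homozygous libraries and 7295 to 7824 TPM in the WT libraries.

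**Figure D1:**
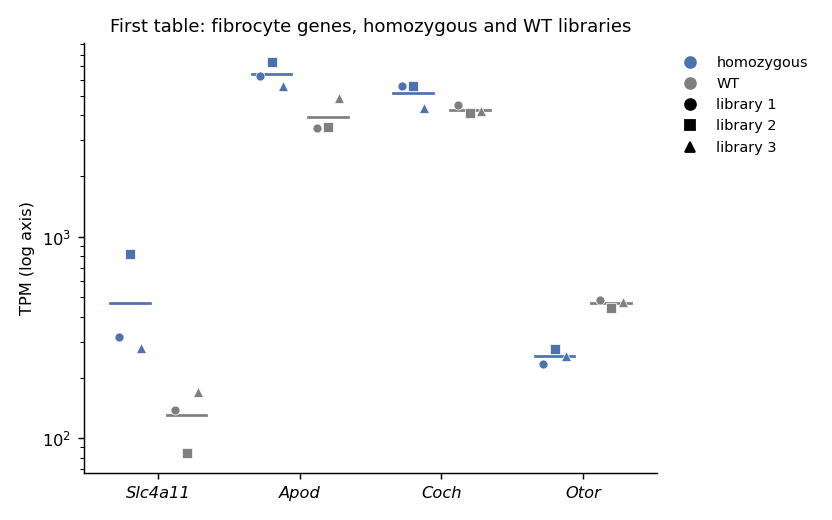
TPM of the 4 fibrocyte genes of the first table on a log axis, by library, for homozygous (left, blue) and WT (right, grey) mice. Lines mark means of 3 libraries and symbols give the library number. Slc4a11 and Apod lie higher in all 3 homozygous libraries, Otor lies lower in all 3, and Coch overlaps.

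Genes of the ligament and its mesenchyme outside the 10 moved in both directions. Of all tested genes 33.5% passed as lower and 17.9% as higher, and list genes absent from the selected rows were not tested. Of 12 genes for ion and water transport in fibrocytes, 6 were in the first table and 0 passed limma. Of these 6, 3 had an unadjusted p under 0.05, against 75.7% of all tested genes. All 6 lay above 0, against 46% of all tested genes, with a median log2 fold change of 0.49, against -0.36 over all. Slc12a2, the sodium-potassium-chloride cotransporter that loads fibrocytes with potassium, had a log2 fold change of 0.48, and Gjb2, the gene of connexin 26 in their gap junctions, one of 0.48 (adjusted p = 0.0789 and 0.0854 by limma). Slc12a2 passed when homozygous library 3 was left out (adjusted p = 0.0403) and when values were scaled by the median of ratios (adjusted p = 0.0499). Emilin2 and Cav1 were the 2 genes present from a list of other ligament and limbus genes, and both fell, with log2 fold changes of -1.94 and -0.49 (adjusted p = 0.0095 and 0.0431 by limma). The call of Cav1 was lost in 5 of the 6 fits with 1 library left out and under median-of-ratios scaling. Of 14 general fibroblast genes 6 were tested, 4 fell and 0 rose. Col3a1 and Col1a2, chains of fibrillar collagens, had log2 fold changes of -1.47 and -0.98 (adjusted p = 0.00325 and 0.0095 by limma). Of 18 genes of Wnt antagonists, receptors and targets 4 were tested, and 3 of them fell. Wif1, a secreted Wnt inhibitor, had a log2 fold change of -1.19 (adjusted p = 0.00847 by limma). Twist1, a transcription factor of mesenchyme, was the single tested gene of its list of 14 and rose by 0.71 on the log2 scale (adjusted p = 0.04997 by limma), a call lost in 5 of those 6 fits.

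Markers of cartilage moved in the same libraries. Of 12 cartilage genes 8 were among the selected rows and tested, of which 6 fell and 0 rose. Of all tested genes 33.5% passed as lower and 17.9% as higher. Their sum was 1172 to 1596 TPM in the homozygous libraries and 2790 to 3444 TPM in the WT libraries. Their part in the levels of the fibrocyte genes was not tested.

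**Figure D2:**
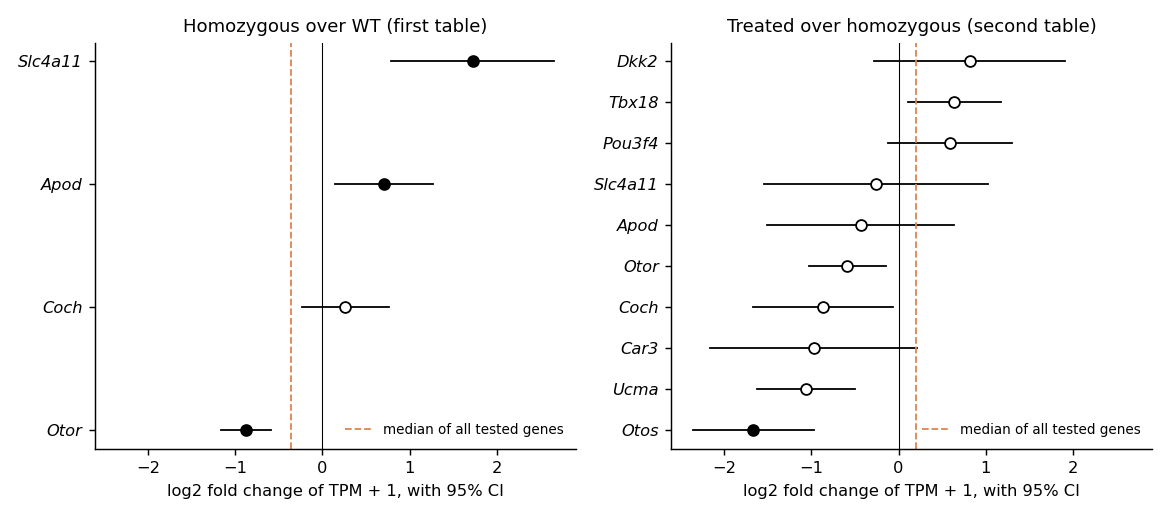
Log2 fold changes of TPM + 1 for fibrocyte genes, homozygous over WT on the left and treated over homozygous on the right, with 95% intervals from limma. Filled points passed at an adjusted p under 0.05, and the dashed line is the median of all tested genes, -0.36 on the left and 0.20 on the right. Otor passed as lower on the left, where Slc4a11 and Apod passed as higher, and Otos alone passed on the right.

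The second comparison, treated against homozygous, asks what injection of the editing vector was followed by in mice of the same genotype. Otos was lower in the treated samples and was the 1 of 10 fibrocyte genes that passed. Ucma, Coch and Otor lay lower in every treated library without passing. Pou3f4, Tbx18 and Dkk2 lay above 0 without passing, and Pou3f4 and Dkk2 overlapped between the groups. By limma 1 of the 10 genes fell and 0 rose, where 4.41% of all 17102 tested genes passed, 3.44% as higher and 0.965% as lower. An unadjusted p under 0.05 was reached by 4 fibrocyte genes below 0 and 1 above, where 26.7% of all tested genes reached it in either direction. Overlap was counted over 2 treated samples, with treated libraries 1 and 2 averaged. Both samples were below every homozygous library in 4 of the 10 genes, against 15.8% of all tested genes. In 1 gene both were above, against 29.2% (45% in either direction). For these fibrocyte genes the same held library by library. The share of genes lower without overlap differed with abundance. It was 30.9% of the 68 genes with a mean of 1000 TPM or more, where Otos, Coch and Apod lie, and 18.2% of the 55 of these that are not mitochondrial. Among the 1865 genes at 100 to 1000 TPM, where Ucma, Otor, Slc4a11 and Car3 lie, it was 23.5%, and among the 9354 at 10 to 100 TPM, where Pou3f4, Tbx18 and Dkk2 lie, 15.5%. The median log2 fold change of the 10 genes was -0.51, against 0.20 over all tested genes. Below 0 were 7 of the 10 and above 0 the other 3, against 39% and 61% of all tested genes.

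Otos encodes otospiralin, a short secreted protein of fibrocytes whose loss in mice impairs hearing. Its level was 808, 780 and 1095 TPM in treated libraries 1, 2 and 3, against 3476, 3126 and 2384 TPM in homozygous libraries 1, 2 and 3. All 3 treated libraries, library 3 included, were below the lowest homozygous library. Counting treated libraries 1 and 2 as 1 sample, the means were 944 ± 213 TPM (SD, n = 2) in treated and 2995 ± 558 TPM (SD, n = 3) in homozygous libraries. Otos had a log2 fold change of -1.67 ± 0.29 (SE; adjusted p = 0.0346 by limma), which placed Otos in the lowest 1.38% of all tested genes. The call was lost without any 1 of the homozygous libraries (adjusted p = 0.186, 0.0805 and 0.125 without libraries 1, 2 and 3) and with treated library 3 alone, where the log2 fold change was -1.43 (adjusted p = 0.0813). It was also lost with no filter on low values (adjusted p = 0.13) and with no mean-variance trend (adjusted p = 0.0516).

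Ucma encodes a secreted matrix protein rich in gamma-carboxyglutamate that is best known from cartilage. It was at 266, 224 and 356 TPM in treated libraries 1, 2 and 3, against 642, 696 and 525 TPM in homozygous libraries 1, 2 and 3. The groups did not overlap. Its log2 fold change was -1.06 with a 95% interval of -1.63 to -0.49 (adjusted p = 0.0571 by limma), so Ucma did not pass. Without treated library 3 its adjusted p was 0.026, and with library 3 alone the log2 fold change was -0.79. Of 10 tested cartilage genes 0 passed limma and 7 lay below 0, at a median of -0.48 on the log2 scale. The summed level of that list was 1582 to 1820 TPM in the treated libraries and 1329 to 1788 TPM in the homozygous libraries. Bone genes summed to 1810 to 4320 TPM in the treated libraries and 3043 to 6032 TPM in the homozygous libraries. Most of both sums was Spp1, at 1661 to 4203 TPM in the treated and 2740 to 4924 TPM in the homozygous libraries. Of the 10 bone genes 2 passed as lower, against 0.965% of all tested genes. All 10 lay below 0, against 39% of all tested genes, at a median of -1.58 on the log2 scale. The part of cartilage and bone in the level of Ucma was not tested. Mgp, the gene of matrix Gla protein, was the 1 of 7 tested genes of Gla proteins and the vitamin K cycle that fell, with a log2 fold change of -1.30 (adjusted p = 0.0372 by limma), and the call did not hold without any 1 of the homozygous libraries.

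Coch was at 4141, 4004 and 3735 TPM in treated libraries 1, 2 and 3, against 7698, 7639 and 6110 TPM in homozygous libraries 1, 2 and 3. The treated values lay close together and below all homozygous values. For Coch the log2 fold change was -0.87 with a 95% interval of -1.67 to -0.06 (adjusted p = 0.165 by limma), and with treated library 3 alone it was -0.93. Of 6 tested relatives of Coch with similar domains 0 passed limma, among them Vit and Matn2 with log2 fold changes of -0.25 and 0.22 (adjusted p = 0.672 and 0.808 by limma). Matn2 differed between the treated samples: without treated library 3 it was at 1.06 and passed (adjusted p = 0.0491), and with library 3 alone it was at -0.62.

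Otor was at 206, 208 and 259 TPM in treated libraries 1, 2 and 3, against 319, 369 and 359 TPM in homozygous libraries 1, 2 and 3. The groups did not overlap. Its change was -0.59 on the log2 scale with a 95% interval of -1.03 to -0.15 (adjusted p = 0.109 by limma). Without treated library 3 the adjusted p was 0.0475, and with library 3 alone the change was -0.43. Mia3 and Mia2 were at log2 fold changes of -0.55 and -0.18 without passing (adjusted p = 0.131 and 0.603 by limma).

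**Figure D3:**
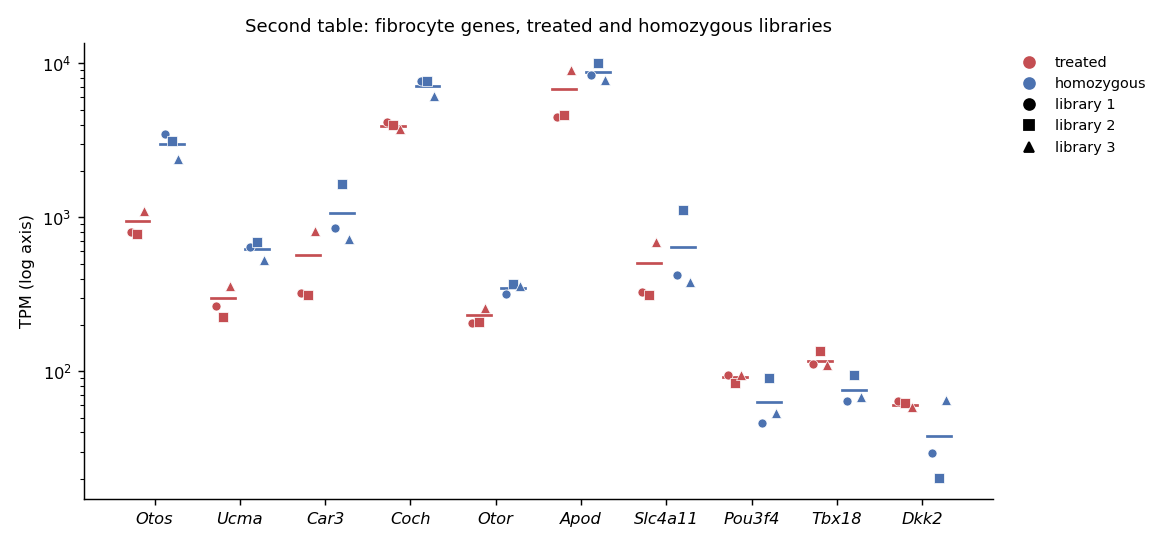
TPM of the 10 fibrocyte genes of the second table on a log axis, by library, ordered by log2 fold change, for treated (left, red) and homozygous (right, blue) mice. Lines mark group means, with treated libraries 1 and 2 counted as 1 sample, and symbols give the library number. Otos, Ucma, Coch and Otor lie lower in all 3 treated libraries, and Tbx18 lies higher in all 3.

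Slc4a11, Car3 and Apod overlapped between the groups. Slc4a11 was at 327, 311 and 692 TPM in treated libraries 1, 2 and 3, against 420, 1109 and 381 TPM in homozygous libraries 1, 2 and 3. Its log2 fold change was -0.26 with a 95% interval of -1.54 to 1.03 (adjusted p = 0.791 by limma), and it was 0.23 without homozygous library 2 and 0.30 with treated library 3 alone. Treated library 3 and homozygous library 2 had the highest values of their groups.

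Car3 encodes a cytosolic carbonic anhydrase that is also abundant in skeletal muscle and fat. It was at 322, 314 and 816 TPM in treated libraries 1, 2 and 3, against 853, 1636 and 719 TPM in homozygous libraries 1, 2 and 3. The groups overlapped through treated library 3, and the log2 fold change was -0.97 with a 95% interval of -2.16 to 0.22 (adjusted p = 0.261 by limma), or -0.29 with treated library 3 alone. Ckm, the muscle creatine kinase, was at 0 to 0.15 TPM in treated and 0.02 to 1.12 TPM in homozygous libraries. Of 7 tested muscle genes 6 lay below 0, and 1 passed as lower and 0 as higher. The 1 was Tnnc2, at 0 TPM in the treated and 2.60 to 4.60 TPM in the homozygous libraries. Its log2 fold change was -2.14 (adjusted p = 0.0409 by limma), and the call was lost in 3 of the 6 fits with 1 library left out. The 12 muscle genes summed to 86.9 to 113 TPM in the treated libraries, where Myh1, Myh2, Myh4, Tnni2 and Tnnc2 were listed at 0 in all 3, and to 159 to 249 TPM in the homozygous libraries. Most of both sums was Pvalb, which is also made by neurons and hair cells, at 81.9 to 109 TPM in the treated and 131 to 227 TPM in the homozygous libraries. The 8 fat cell genes summed to 1.20 to 16.7 TPM in the treated libraries and 0.5 to 3.46 TPM in the homozygous libraries. The part of muscle and fat in the level of Car3 was not tested. Of the other carbonic anhydrases 10 were tested and 0 passed limma. Car14 had a log2 fold change of -0.84 and Car2 one of 0.54 (adjusted p = 0.2 and 0.391 by limma).

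Apod was at 4486, 4601 and 9053 TPM in treated libraries 1, 2 and 3, against 8432, 9984 and 7759 TPM in homozygous libraries 1, 2 and 3. Treated library 3 lay inside the homozygous range and the other two below it. Its change was -0.44 on the log2 scale with a 95% interval of -1.51 to 0.64 (adjusted p = 0.571 by limma), and with treated library 3 alone it was 0.06. Ptgds, the other abundant lipocalin, was split in the same way, at 4540, 4617 and 14177 TPM in treated libraries 1, 2 and 3 and 11889, 14511 and 7861 TPM in homozygous libraries 1, 2 and 3 (adjusted p = 0.667 by limma).

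Summed markers of the stria vascularis were highest in the same library as these genes within each group. The 7 marginal cell genes summed to 957, 937 and 1905 TPM in treated libraries 1, 2 and 3, against 639, 1386 and 514 TPM in homozygous libraries 1, 2 and 3. Slc4a11 and Car3 were highest, within each group, in the library with the highest sum, which was treated library 3 and homozygous library 2. Intermediate cell genes of the stria (2502 and 2047 TPM) and bone genes (4320 and 6032 TPM) also had their highest sums there. Between the groups the order differed. Treated libraries 1 and 2 had higher marginal cell sums than homozygous libraries 1 and 3, but lower Slc4a11, Car3 and Apod. Of the 7 marginal cell genes 0 passed limma and all 7 lay above 0. Oligodendrocyte genes, which could come from the auditory nerve, summed to 455 to 498 TPM in the treated libraries and 850 to 2352 TPM in the homozygous libraries, and Schwann cell genes to 4203 to 5010 TPM in the treated and 4885 to 10152 TPM in the homozygous libraries. The part of these tissues in the levels of Slc4a11, Car3 and Apod was not tested.

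**Figure D4:**
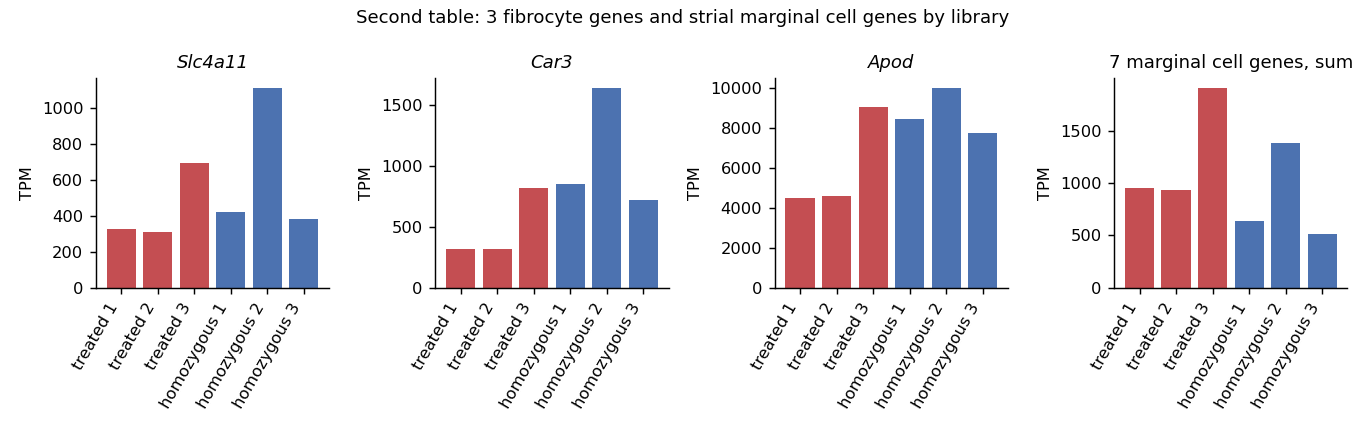
TPM of Slc4a11, Car3 and Apod, and the summed TPM of 7 marginal cell genes of the stria, in each treated (red) and homozygous (blue) library of the second table. Within each group Slc4a11, Car3, Apod and the sum are highest in the same library, treated library 3 and homozygous library 2. The sums of intermediate cell genes and of bone genes, not shown, are highest there too.

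Pou3f4, on the X chromosome, and Tbx18 encode transcription factors of the otic mesenchyme that fibrocytes need to form. Pou3f4 was at 94.4, 83.8 and 94.7 TPM in treated libraries 1, 2 and 3, against 46.4, 89.8 and 53.4 TPM in homozygous libraries 1, 2 and 3. The groups overlapped through homozygous library 2, and the log2 fold change was 0.59 with a 95% interval of -0.12 to 1.31 (adjusted p = 0.256 by limma). Tbx18 was at 112, 135 and 110 TPM in treated libraries 1, 2 and 3, against 64.3, 94.8 and 67.8 TPM in homozygous libraries 1, 2 and 3. Every treated library was above every homozygous library, and the log2 fold change was 0.64 with a 95% interval of 0.11 to 1.17 (adjusted p = 0.134 by limma). With treated library 3 alone the log2 fold changes were 0.64 for Pou3f4 and 0.56 for Tbx18. These 2 genes had the most alike profiles of all pairs of the 10: the root mean square distance of their centred log2 values was 0.15 over 5 samples, against 0.23 for the next pair, Coch and Ucma.

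Dkk2 encodes a secreted modulator of Wnt signalling. It was at 64.4, 62.0 and 58.2 TPM in treated libraries 1, 2 and 3, against 29.6, 20.2 and 64.8 TPM in homozygous libraries 1, 2 and 3. Homozygous library 3 was above all treated libraries. Dkk2 had a log2 fold change of 0.82 with a 95% interval of -0.28 to 1.91 (adjusted p = 0.301 by limma). Of 15 other tested genes of Wnt antagonists, receptors and targets 1 passed, and 12 of the 15 lay above 0 with a median log2 fold change of 0.57. The 1 was Axin2, a feedback target of Wnt signalling, at 129, 124 and 132 TPM in treated libraries 1, 2 and 3, against 48.4, 54.0 and 63.0 TPM in homozygous libraries 1, 2 and 3. Its log2 fold change was 1.22 (adjusted p = 0.0257 by limma), and the call was lost in 3 of the 6 fits with 1 library left out. In this comparison the fits without treated library 1 or 2 keep its near copy and came close to the main fit. In them 728 and 745 genes passed, against 754, so they say little about stability.

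The level of a gene relative to Coch in the same library does not depend on how the library was scaled. The log2 ratio of Otos to Coch was -2.36, -2.36 and -1.77 in treated libraries 1, 2 and 3, against -1.15, -1.29 and -1.36 in homozygous libraries 1, 2 and 3, with no overlap. That of Tbx18 to Coch was -5.21, -4.89 and -5.08 in treated libraries, against -6.90, -6.33 and -6.49 in homozygous libraries. Pou3f4 and Dkk2 likewise had no overlap in this ratio, while Otor, Slc4a11, Apod, Car3 and Ucma did overlap. These ratios show unequal change among the genes and were not tested.

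Other genes of the ligament and its mesenchyme were read against the 4.41% of all tested genes that passed. Of 12 ion and water transport genes 1 rose and 0 fell. That was Slc4a2, an anion exchanger, at 164, 181 and 178 TPM in treated libraries 1, 2 and 3, against 97.5, 98.1 and 81.2 TPM in homozygous libraries 1, 2 and 3 (log2 fold change 0.92, adjusted p = 0.041 by limma). Of 10 other ligament and limbus genes 1 rose, which was Tgfbi, the gene of a secreted matrix protein induced by TGF-beta. It was at 134, 126 and 129 TPM in treated libraries 1, 2 and 3, against 36.1, 34.3 and 45.2 TPM in homozygous libraries 1, 2 and 3 (log2 fold change 1.73, adjusted p = 0.0124 by limma). The call of Slc4a2 was lost in 3 of the 6 fits with 1 library left out, under median-of-ratios scaling and with mitochondrial genes left out of the total, and that of Tgfbi in 2 of the 6. Among these 6, the fits without treated library 1 or 2 keep its near copy. Of 10 tested mesenchyme transcription factors 0 passed limma and 6 lay above 0, with Six2 and Foxc1 at log2 fold changes of 1.30 and 0.21 (adjusted p = 0.0639 and 0.565 by limma). Of 13 general fibroblast genes Mgp, named above, was the 1 that fell, and 0 rose. The summed level of that list was 1806 to 2117 TPM in the treated libraries and 1933 to 2276 TPM in the homozygous libraries, so the ranges overlapped. Of 3 other genes of the Pou3f4 class 0 passed limma, with Pou3f3 at a log2 fold change of 0.30 and Pou3f2 at -0.67 (adjusted p = 0.434 and 0.348 by limma). Macrophage markers rose in the same samples: 7 of 9 genes passed, and their sum was 927 to 1418 TPM in the treated libraries and 120 to 200 TPM in the homozygous libraries. Their part in the levels of the fibrocyte genes was not tested.

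Genes whose profile was most like that of Otos or Coch were sought among 11370 other genes with a mean of at least 10 TPM, by the root mean square distance of centred log2 values over 5 samples. Closest to Coch were Ginm1, Trf, Col9a1, Hmgb1 and Slc30a9, at distances of 0.05 to 0.09, with log2 fold changes of -0.72 to -0.93, of which Slc30a9 passed (adjusted p = 0.0328 by limma). Trf encodes transferrin and Col9a1 a chain of collagen IX. Closest to Otos were Snrpd1, Rps21, Mrpl42, Lyrm2 and Uqcrb, at distances of 0.09 to 0.13, which fell with log2 fold changes of -1.55 to -1.91 (adjusted p = 0.0199 to 0.049 by limma). Both sets were chosen on the samples of the fit, so changes near those of Coch and Otos follow from the choice and are no separate result. Snrpd1 belongs to the spliceosome, Rps21 and Mrpl42 to cytosolic and mitochondrial ribosomes and Uqcrb to the respiratory chain. Their transcripts have 394 to 670 bases as the median per gene. The Otos transcript has 704 bases and those of Ucma a median of 770.5. Otor and Coch, which also lay below 0, have 949 bases and a median of 2568.5 bases. Pou3f4, Dkk2 and Tbx18, the 3 fibrocyte genes above 0, have the longest of the 10, with 2928, 3705 and 4679 bases. Over all 16635 tested genes with a known length the Spearman rho of length and log2 fold change was 0.02, a value across genes that are not independent. The part of transcript length in the levels of these genes was not tested.

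The 2 comparisons share the homozygous libraries, so their values for a gene are not independent. For Slc4a11 the log2 fold changes were 1.72 in homozygous over WT and -0.26 in treated over homozygous, for Apod 0.71 and -0.44, for Coch 0.26 and -0.87, and for Otor -0.88 and -0.59. Otor lay below 0 in both. WT levels of the other 6 genes were not analysed here.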

How the data were processed

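RNA-seq libraries were made from total RNA with a strand-specific kit, per the labels' protocols. The deposited values, read as TPM from their totals and the named tool, cover 1411 rows (first table) and 25606 rows (second table), made by the authors with kallisto 0.51.0, per the submitters' processing notes, which also name DESeq without a version and the build GRCm39. The sources used here do not state how the authors selected the first table's rows. Sequencing depth is unknown from TPM, so counting intervals and floors are not given. The second table summed to 995747 to 996703 TPM per library, with 16529 to 17281 symbols at 1 TPM or more. Groups came from the sample titles, since the genotype field counts upward from sample to sample.

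Repeated symbols were summed. The test took genes that reached 1 TPM in 3 or more libraries, 1348 and 17102. Within each table, limma 3.58.1 in R 4.3.3 compared group means of log2(TPM + 1), two-sided and with trended variances. P-values were adjusted by Benjamini-Hochberg over every tested gene of the table, at a threshold of 0.05. In the first table these are the selected rows alone. Fold changes on this scale understate the change of low genes. Treated libraries 1 and 2 were averaged to 1 sample. The scripts were tested on simulated data. Replicate numbers did not pair the samples.

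The 10 genes and the other lists were chosen with earlier results of these data known. Named genes are the 10, and from each other list up to 2 higher and 2 lower genes past the threshold with the smallest p or, where none passed, the 2 with the highest mean, and 5 genes each with profiles most like Otos and Coch. Genes named beyond that rule (Mpzl2, Ckm, the muscle genes listed at 0 and promoters of Dkk2 and Coch) were chosen after their values were seen. Transcript lengths are from GENCODE M21. The alternatives tried were another pseudocount, no filter, median-of-ratios scaling, no trend, each library left out, a replicate block, treated libraries entered singly or library 3 alone, and TPM rescaled without mitochondrially encoded genes.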

Additional observations from a re-analysis of the deposited data

How the results depend on the processing

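Otor kept its call as lower in homozygous libraries under every alternative run. The Otos call held under the pseudocount of 0.1 TPM, both rescalings and the fits with treated libraries 1 and 2 entered singly. No sign of a fibrocyte gene changed under median-of-ratios scaling, which moved the median log2 fold change of all genes to -0.23 from -0.36 in the first table and to 0.02 from 0.20 in the second, and under it Otos was at -1.86. In homozygous against WT the number of genes past the threshold, 692 as reported, was 103 to 611 with 1 library left out, and the fibrocyte genes higher 0 to 2. In treated against homozygous the number, 754 as reported, was 63 to 2984 with 1 library left out, 134 with no filter, 479 with no trend, 3563 with treated libraries 1 and 2 entered singly and 222 with treated library 3 alone. The fibrocyte genes lower were 0 to 3 with 1 library left out, 0 with no filter, 0 with no trend, 0 with library 3 alone, and 4 with the libraries entered singly (Otos, Otor, Coch and Ucma), where 1, Tbx18, was higher.

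The replicate numbers do not pair the samples: deviations of same-numbered libraries correlated at 0.0493, -0.14 and -0.0743 in the first table and 0.0304, -0.146 and -0.117 in the second. With a replicate block 343 genes passed in the first table, with 1 fibrocyte gene higher since Apod lost its call (adjusted p = 0.0909), and 1485 in the second, where all libraries were entered singly.

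Directions that turned, none of which passed, were as follows on the log2 scale. With 1 library left out Slc4a11 was at -0.82 to 0.23, positive without homozygous library 2, and Hba-a2 at -0.91 to 0.75, also positive without that library. Hba-a1 was at -0.48 to 1.12, negative without homozygous library 3. Without treated library 3 the turns were those of Mia2 (-0.19 to 0.062 over these fits), Kcne1 (-0.20 to 1.09), Dct (-0.26 to 0.70) and Gsta4 (-0.28 to 0.78). With treated library 3 alone Slc4a11 was at 0.30, Apod at 0.061, Matn2 at -0.62, Vit at 0.014, Ptgds at 0.36, Adipoq at -0.11, Igf2 at -0.10 and Hba-a2 at 0.40. The cause was not tested. Fits that leave 1 treated sample assume that it varies like the homozygous libraries.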
